A study of Drosophila melanogaster with 8 samples.

Results

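Accessible chromatin was followed with time in mutant Drosophila melanogaster embryos, which were collected at 2.5 to 3 h and, as the earlier window, at 1 to 1.5 h. This comparison rests on 4 of the 8 ATAC-seq libraries of the series, 2 mutant libraries in each window, and the 4 wild-type (WT) libraries of the same windows were used only to set it in context. In ATAC-seq the Tn5 transposase inserts adapters into open DNA, and stretches with many insertions are called as peaks. Each library was available as a list of peak positions on the dm6 genome build. Peaks of the 4 mutant libraries that shared at least 1 bp were joined into 30094 regions, against 38545 regions when all 8 libraries were joined. A region was gained when both libraries of 2.5 to 3 h called it and neither library of 1 to 1.5 h did, lost when the early libraries alone called it in the same way, and kept when every mutant library had a peak there.

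The mutant embryos were taken to be those in which IntS11 was mislocalized. Since every title, WT titles included, mentions mislocalized IntS11, assigning it to the mutant is a reading of the labels. They name whole embryos as the material and give no allele, parental genotype, strain background, sex or number of embryos per library. They also do not say whether replicates came from separate collections, so the p-values below reflect no more than library-to-library spread, part of which may be technical. The lists hold no read counts, so the depth of each library is unknown, and a stretch without a peak may still have been open. Embryos were measured in bulk, so a peak present in more nuclei and a peak more open in each nucleus cannot be told apart.

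IntS11 is the endonuclease subunit of Integrator, a complex that cleaves nascent RNA near promoters and forms the 3′ ends of snRNAs. The fly embryo starts with rapid nuclear divisions that run on maternal products. Transcription of its own genome begins with a small set of early zygotic genes and then spreads to many genes around cellularization. During this transition pioneer factors such as Zelda open promoters and enhancers, and more regulatory DNA becomes accessible.

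At IntS11 itself (gene 43506, chromosome 3R, 29745337 to 29747513), each mutant library of 2.5 to 3 h held 1 peak inside the gene, 907 and 947 bp long. The same stretch was split into 2 shorter peaks in both mutant libraries of 1 to 1.5 h, of 196 and 210 bp in replicate 1 and of 156 and 207 bp in replicate 2. The neighbouring peak in ATPsyngamma, which encodes an ATP synthase subunit, measured 736 and 762 bp at 2.5 to 3 h and 617 and 566 bp at 1 to 1.5 h. No WT library had a peak at the stretch of the mutant peaks inside IntS11, and the WT peaks in IntS11 lay at its other end. Every WT library had a peak inside ATPsyngamma. The part of the mutant allele in these positions was not tested.

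Peaks covered more of the genome of mutant embryos at 2.5 to 3 h than at 1 to 1.5 h, while the number of peaks differed less. The covered length was 8336 and 8048 kb at 2.5 to 3 h, against 4486 and 3712 kb at 1 to 1.5 h, a ratio of means of 1.999. The number of peaks was 19995 and 19035 at 2.5 to 3 h and 18706 and 15569 at 1 to 1.5 h, a ratio of 1.14. The windows did not overlap in either value. The difference in the number of peaks was 2377.5 as deposited, 8129.5 with only peaks of at least 200 bp, 3946 without replicate 1 of 1 to 1.5 h and 809 without replicate 2 of 1 to 1.5 h. The median peak width was 337 and 342 bp at 2.5 to 3 h and 192 bp in both libraries of 1 to 1.5 h. Peaks within 250 bp of either end of an annotated gene span, called gene-end peaks here, marked 7352 and 7264 genes at 2.5 to 3 h and 5643 and 5032 genes at 1 to 1.5 h. Their share of all peaks was 30.4% ± 0.552 at 2.5 to 3 h and 26.4% ± 0.985 at 1 to 1.5 h (SD, n = 2 each). Each of these values gave p = 0.333 in a two-sided exact permutation test of 2 against 2 libraries (adjusted p = 0.333 over 6 values), which is the smallest p this design allows. Replicates shared more covered length than windows did, with a Jaccard index of 0.592 between the libraries of 2.5 to 3 h, 0.416 between those of 1 to 1.5 h and 0.303 to 0.336 across windows.

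The WT lists moved differently with time. WT covered 8714 and 8376 kb at 2.5 to 3 h and 8913 and 8189 kb at 1 to 1.5 h, so its windows overlapped. Its number of peaks was lower at 2.5 to 3 h, with 19002 and 18440, than at 1 to 1.5 h, with 25201 and 23815. Of these, 2541 and 2438 peaks were under 200 bp at 2.5 to 3 h, against 7309 and 7191 at 1 to 1.5 h. The change in the number of peaks with time was larger by 8164.5 peaks in the mutant than in WT. A two-sided exact permutation of genotypes within windows gave p = 0.0556 (adjusted p = 0.167 over 6 values). This is the smallest p that its 36 arrangements allow. For covered length the difference between the changes was 4099 kb (exact permutation p = 0.333, adjusted p = 0.333). Neither passed 0.05, which no value could under this permutation. Labels were permuted within each window, so the p also depends on differences between genotypes that both windows share. It therefore does not measure the difference between the changes alone.

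**Figure D1:**
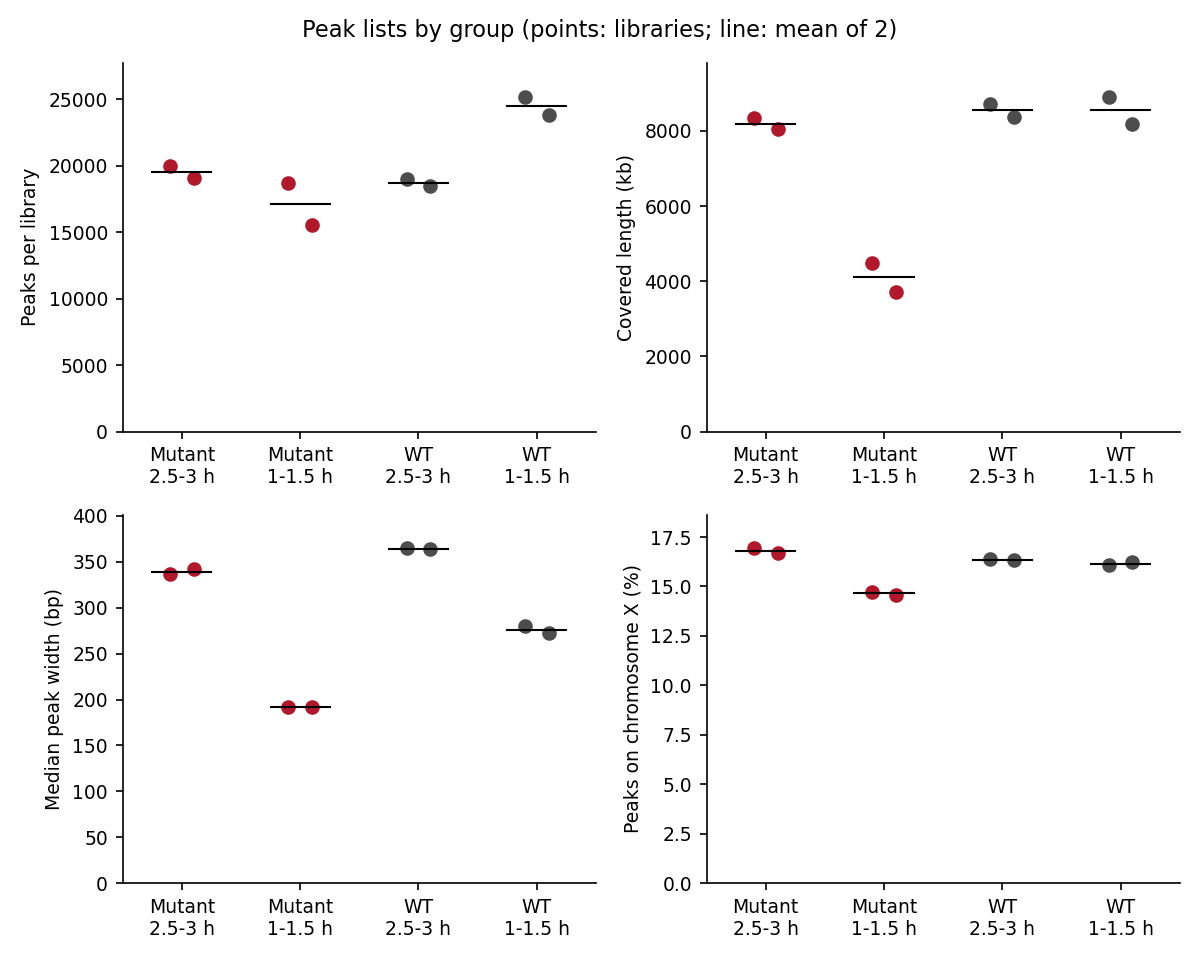
Number of peaks, covered length (kb), median peak width (bp) and share of peaks on chromosome X (%) in each library, with the 2 libraries of a group as points and their mean as a line, all axes starting at 0. Covered length in the mutant was 8336 and 8048 kb at 2.5 to 3 h and 4486 and 3712 kb at 1 to 1.5 h, while the WT windows overlapped.

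The smallest peaks and gaps also differed between windows, and their part in these values was tested only by the common limits given here. The shortest peak was 148 and 149 bp in the mutant libraries of 2.5 to 3 h and 100 and 101 bp in those of 1 to 1.5 h, and the smallest gap between peaks was 1 bp longer in each. Peaks under 200 bp made up 17.3% and 16.5% of the lists of 2.5 to 3 h and 52.9% and 52.8% of those of 1 to 1.5 h. With gaps under 160 bp bridged and peaks under 160 bp removed in every library, the mutant difference in covered length was 4672 kb, against 4093 kb as deposited.

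More regions were gained than lost between the windows in mutant embryos. Of the 30094 regions, 3479 were gained (11.6%), 1021 were lost (3.39%) and 8170 were kept (27.1%). The gained regions were 23.5% of the 14830 regions called in both libraries of 2.5 to 3 h, and the lost regions were 10.1% of the 10120 called in both libraries of 1 to 1.5 h. Another 3181 regions were called in both libraries of 2.5 to 3 h and in 1 of 1 to 1.5 h, and 929 in both libraries of 1 to 1.5 h and in 1 of 2.5 to 3 h. In 1932 regions 1 library of each window had a peak, and 11382 regions were called in a single library. In WT embryos, joined and classed in the same way over 33221 regions, 2338 regions were gained (7.04%), 4330 were lost (13.0%) and 11177 were kept.

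The balance between gained and lost regions depended on short peaks and on the libraries of 1 to 1.5 h. With only peaks of at least 200 bp, 5240 regions were gained and 215 lost, and with equal list lengths 2507 were gained and 1290 lost. Without replicate 2 of 1 to 1.5 h the counts were 4596 gained and 4649 lost. In 228 of the 1021 lost regions (22.3%) every peak of 1 to 1.5 h was shorter than 148 bp, the shortest peak called at 2.5 to 3 h.

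Kept regions lay at gene ends in a larger share than gained and lost regions did. Gene ends held 26.8% of gained, 18.02% of lost and 42.8% of kept regions, against 25.5% of all regions. Regions inside genes and away from their ends made up 57.3% of gained, 72.9% of lost and 45.6% of kept regions, against 62.3% of all regions. Regions between genes made up 16.0%, 9.11% and 11.6%, against 12.2% of all regions. The gained regions were short, with a median covered length of 284 and 283 bp in the libraries of 2.5 to 3 h, and the lost ones were shorter, with 164 and 158 bp in those of 1 to 1.5 h. Kept regions were longer, with 504 and 501.5 bp at 2.5 to 3 h. A region counted as lying at a gene end if any part of it came within 250 bp of one. Longer regions could therefore count more easily, and the part of length in these shares was not tested. Between genes, 42.0% of the gained regions lay over 5 kb from the nearest gene, against 40.9% of the lost and 31.2% of the kept ones. No test was run over regions, which are not replicates.

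The WT libraries took no part in choosing the classes. Both WT libraries of 2.5 to 3 h called 2072 of the 3479 gained regions (59.6%), and neither did for 930 (26.7%). Over all 30094 mutant regions these shares were 48.5% and 39.6%. Over the kept regions, also called in both mutant libraries of 2.5 to 3 h, they were 90.5% and 5.14%. Both WT libraries of 1 to 1.5 h called 1198 of the gained regions (34.4%), and neither did for 1499 (43.1%), against 50.6% and 30.2% of all regions. Over the 4 WT libraries, 993 gained regions were called in all of them (28.5%, against 36.4% of all regions). Another 642 were called in none (18.5%, against 20.2% of all regions). Also gained in WT were 601 (17.3%, against 6.04% of all regions).

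Neither WT library of 2.5 to 3 h called 730 of the 1021 lost regions (71.5%, against 39.6% of all regions). Both WT libraries of 1 to 1.5 h called 551 (54.0%), a share near the 50.6% of all regions and below the 89.8% of kept regions. The loss was shared by WT at 329 regions (32.2%, against 9.40% of all regions). Of the kept regions, 6835 (83.7%) were called in all 4 WT libraries, against 36.4% of all regions.

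**Figure D2:**
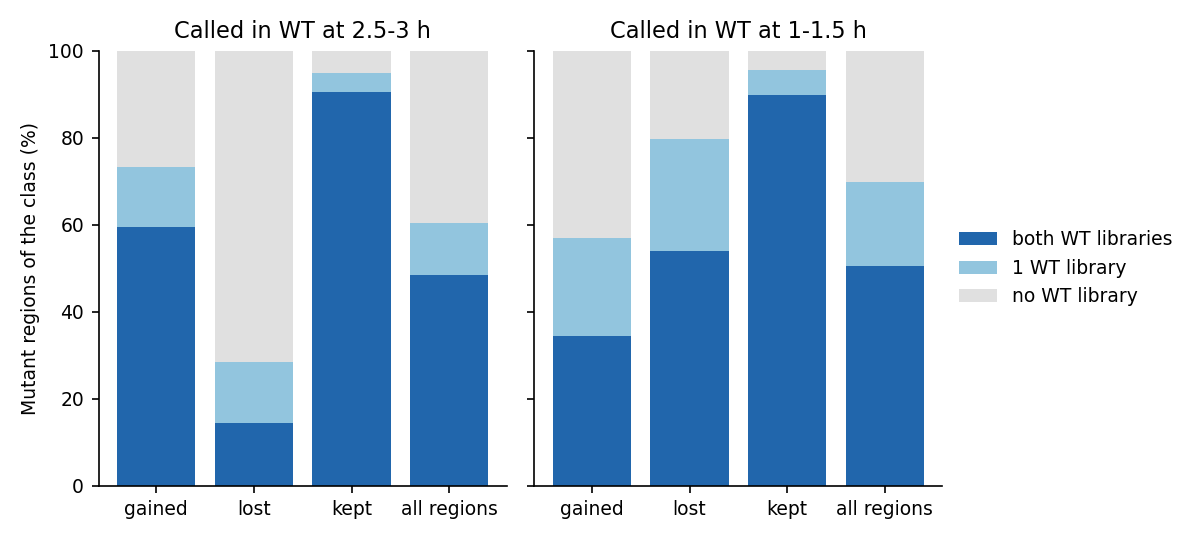
Share of the gained, lost, kept and all mutant regions (%) called in both, 1 or neither WT library, for WT at 2.5 to 3 h on the left and at 1 to 1.5 h on the right. Both WT libraries called 59.6% of the gained regions at 2.5 to 3 h and 34.4% of them at 1 to 1.5 h.

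By genes, 1360 of 17807 gained a gene-end peak (7.64%), 166 lost it (0.932%) and 3892 kept it (21.9%). Lengths at gene ends sum whole peaks that touch the window. A gene gain could therefore also come from a peak that reached the window only at 2.5 to 3 h. Such a gain need not be a gained region, of which 932 lay at gene ends. The lost genes were 3.94% of the 4210 genes called in both libraries of 1 to 1.5 h. Of the 1360 gained genes, both WT libraries of 2.5 to 3 h called 1119 (82.3%), both WT libraries of 1 to 1.5 h called 751 (55.2%) and all 4 WT libraries called 691 (50.8%). Over the 3892 kept genes these shares were 97.2%, 95.6% and 93.9%. Of all 17807 genes, the WT libraries marked 8087 and 7965 at 2.5 to 3 h and 8054 and 7734 at 1 to 1.5 h. WT gained a gene-end peak at 719 genes (4.04%) and lost it at 614 (3.45%).

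Regions that were kept were wider at 2.5 to 3 h. Of the 8170 kept regions, 6634 (81.2%) had more covered length in both libraries of 2.5 to 3 h than in both of 1 to 1.5 h, and 120 (1.47%) had less. The median difference was 184.5 bp, a ratio of 1.62. Kept regions at gene ends were wider by a median of 245 bp, those inside genes by 157.5 bp and those between genes by 137.5 bp. In WT 49.6% of kept regions were wider at 2.5 to 3 h and 15.4% were narrower, with a median difference of 55.5 bp. Under the common limits of 160 bp, 79.3% of the kept mutant regions were wider. Separate peaks were joined in part of them: 593 kept regions held several peaks in both libraries of 1 to 1.5 h and 1 peak in both of 2.5 to 3 h, while 7 showed the reverse.

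**Figure D3:**
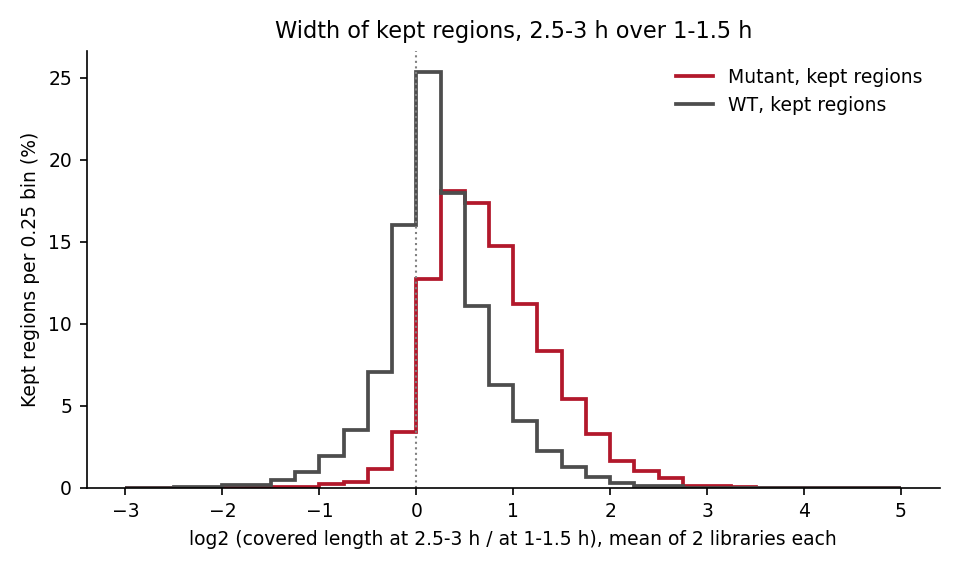
Distribution over kept regions of the log2 ratio of covered length at 2.5 to 3 h over that at 1 to 1.5 h, each the mean of 2 libraries, as the share of kept regions (%) per bin, for 8170 mutant and 11177 WT regions. The mutant distribution lies mostly above 0, with 81.2% of regions wider in both late libraries, against 49.6% in WT.

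Most patterning genes of the segmented body axis already had a gene-end peak in both mutant libraries of 1 to 1.5 h, and run, inv and nkd had none there. Gap genes encode transcription factors that divide the embryo into broad domains, and 12 of 12 kept their gene-end peaks. Of these 9 were wider at 2.5 to 3 h, none was narrower, and the windows overlapped at 3, hb, knrl and croc, which were named after their values were seen. The median difference over the 12 genes was 135 bp, against 309 bp over all kept genes, and lay between 109.5 and 169.8 bp under every alternative tried. In WT the same median was 11 bp, against 105 bp over all kept genes. The background was high, here and for the lists below, since 88.1% of all kept mutant genes were wider at 2.5 to 3 h and 0.822% narrower. Of all genes, 21.9% kept a gene-end peak in the mutant.

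The summed peak length at the gene ends of hb, the anterior gap gene, was 339 and 344 bp at 2.5 to 3 h and 342 and 381 bp at 1 to 1.5 h. At Kr, the gap gene of the central region, it was 585 and 639 bp against 286 and 293 bp. The windows thus overlapped at hb and lay apart at Kr. At kni, which acts in the posterior, it was 596 and 601 bp against 470 and 508 bp, and at gt it was 1487 and 1500 bp against 1155 and 1301 bp.

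Pair-rule genes, expressed in alternate segments, kept 8 of 9 gene-end peaks. Of these 7 were wider at 2.5 to 3 h (87.5%, against 88.1% of all kept genes). The exception was eve, with 1484 and 1585 bp at 2.5 to 3 h and 1521 and 1490 bp at 1 to 1.5 h, so its windows overlapped. The ninth gene, run, had no gene-end peak in any mutant library. At ftz the summed length was 1690 and 2037 bp against 1314 and 1433 bp. At hry, named hairy, it was 1116 and 1109 bp against 833 and 855 bp, and at odd 2095 and 2137 bp against 897 and 975 bp. The median difference of the list was 231.75 bp in the mutant and 636.5 bp in WT.

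Segment polarity genes, which set the boundaries within segments, kept 7 of 9, all 7 of them wider, against 88.1% of all kept genes. The median difference was 468 bp in the mutant and 98 bp in WT. The signal gene wg had 706 and 686 bp at 2.5 to 3 h and 409 and 395 bp at 1 to 1.5 h. The signal gene hh had 1084 and 1520 bp against 612 and 609 bp, and the homeobox gene en 969 and 935 bp against 608 and 690 bp. At gsb the values were 1059 and 995 bp against 389 and 550 bp. A gene-end peak was gained at nkd, an inhibitor of Wingless signalling, with 231 and 185 bp at 2.5 to 3 h, where all 4 WT libraries had a peak. That was 1 of 9 genes (11.1%, against 7.64% of all genes). The gain at nkd was not called with equal list lengths or with peaks of at least 200 bp, and inv, a homeobox gene next to en, had no gene-end peak in any mutant library.

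Hox genes, which give segments their identity, kept 7 of 8 gene-end peaks, and 4 of these were wider (57.1%, against 88.1% of all kept genes). Their median difference of 27 bp moved to 98 bp with peaks of at least 200 bp. At lab the values were 1159 and 1136 bp at 2.5 to 3 h and 920 and 621 bp at 1 to 1.5 h, and at Scr they overlapped, with 204 and 234 bp against 228 and 241 bp. At pb they were 655 and 557 bp against 504 and 445 bp, and at Dfd 422 and 422 bp against 404 and 386 bp. Antp lost its gene-end peak, which was 130 bp long in both mutant libraries of 1 to 1.5 h, below the 148 bp of the shortest peak at 2.5 to 3 h. Antp was 1 of 8 genes (12.5%, against 0.932% of all genes). In WT that gene had 451 and 468 bp at 2.5 to 3 h and 496 and 556 bp at 1 to 1.5 h.

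Along the dorsoventral axis the dorsal ectoderm genes differed most between windows. These genes lie downstream of the BMP ligand Dpp or share its domain, and 8 of 14 kept their gene-end peaks. All 8 were wider, against 88.1% of all kept genes, with a median difference of 456.75 bp in the mutant and 76.5 bp in WT. At zen, a homeobox gene of the amnioserosa, the summed length was 1699 and 1470 bp at 2.5 to 3 h and 356 and 372 bp at 1 to 1.5 h. At tld, whose protease releases Dpp from its inhibitor, it was 1096 and 1204 bp against 559 and 535 bp. It was 1257 and 1284 bp against 825 and 788 bp at tup and 461 and 483 bp against 321 and 285 bp at pnr. Peaks were gained at 2 of the 14 genes (14.3%, against 7.64% of all genes), ush, with 459 and 492 bp, and zen2, with 195 and 169 bp. None of the 14 was called gained with a gene-end window of 500 bp, and 1 was with equal list lengths. All 4 WT libraries had a peak at ush, and at zen2 only 1 WT library, of 2.5 to 3 h, did.

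Ventral and mesoderm genes kept 7 of 11, 6 of them wider (85.7%, against 88.1% of all kept genes), with a median difference of 122.5 bp. At sna, a repressor needed for gastrulation, the summed length was 1632 and 1662 bp at 2.5 to 3 h and 1538 and 1627 bp at 1 to 1.5 h. At Mef2, a muscle regulator, it overlapped between windows, with 279 and 261 bp against 288 and 152 bp. It was 401 and 315 bp against 246 and 223 bp at tin and 384 and 387 bp against 319 and 207 bp at fog. The insulin-like gene Ilp4 gained a gene-end peak of 505 and 275 bp, 1 of the 11 genes (9.09%, against 7.64% of all genes). Every WT library had a gene-end peak at Ilp4. Neuroectoderm genes kept 7 of 9, with a median difference of 123.5 bp, 5 of them wider (71.4%). The narrower one was vn, named after its values were seen, with 503 and 510 bp against 560 and 568 bp. At rho, an activator of EGF receptor ligands, the summed length was 965 and 965 bp against 500 and 415 bp. It was 794 and 772 bp against 577 and 583 bp at brk, 1106 and 1101 bp against 830 and 931 bp at ind, and 357 and 352 bp against 401 and 337 bp at sim, where the windows overlapped.

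Early zygotic genes kept 17 of 22 gene-end peaks, 16 of them wider (94.1%, against 88.1% of all kept genes). The median difference was 383 bp, or a ratio of 1.64 against 2.04 over all kept genes. Gains were called at 2 of the 22 (9.09%, against 7.64% of all genes), at 1 with equal list lengths or a gene-end window of 500 bp, and no loss was called. The gains were at scw, a BMP ligand, with 1224 and 1060 bp at 2.5 to 3 h (2L, 19699379 to 19700968), and at Ance, a peptidase of the dorsal ectoderm, with 190 and 214 bp. At scw 2 of the 4 WT libraries had a peak, 1 in each window, and at Ance none did. The cellularization gene slam had 3548 and 3578 bp at 2.5 to 3 h, 1435 bp in replicate 1 of 1 to 1.5 h and no peak in replicate 2, so it belonged to no class. It was named after its values were seen.

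Among pioneer factors and chromatin remodelers, zld, which encodes Zelda, kept its gene-end peak, with 808 and 717 bp at 2.5 to 3 h and 348 and 337 bp at 1 to 1.5 h. So did Clamp, which encodes a GA-repeat binding protein, with 260 and 352 bp against 158 and 108 bp, and opa, with 647 and 869 bp against 588 and 538 bp. All 3 were wider in both late libraries, as were 88.1% of all kept genes. Gains were called at 2 of 9 genes (22.2%, against 7.64% of all genes), the remodelers Mi-2 (329 and 436 bp) and Chd1 (267 and 228 bp), where all 4 WT libraries had peaks. The gains numbered 1 with a window of 500 bp and 4 without replicate 2 of 2.5 to 3 h. A loss was called at Iswi, 1 of the 9 (11.1%, against 0.932% of all genes), with 111 and 105 bp at 1 to 1.5 h, again shorter than any peak of 2.5 to 3 h. That loss was not called with common limits, equal list lengths, peaks of at least 200 bp or a window of 500 bp.

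Genes of the general transcription machinery gained gene-end peaks at 4 of 16 (25%, against 7.64% of all genes) and lost none. The TATA-binding protein gene Tbp had 755 and 793 bp at 2.5 to 3 h and no gene-end peak at 1 to 1.5 h (2R, 21686192 to 21687642). Taf11 had 999 and 940 bp, Taf9 418 and 659 bp and Taf7 301 and 594 bp at 2.5 to 3 h. These 3 genes encode TFIID subunits. All 4 WT libraries had peaks at Tbp, Taf7 and Taf9, and 3 of 4 did at Taf11, where replicate 1 of WT at 1 to 1.5 h had none. The other 12 genes comprised 8 kept, with a median difference of 368.75 bp, and 4 called in some libraries. Insulator protein genes gained 3 of 16 (18.8%, against 7.64% of all genes): Dref, with 863 and 694 bp, BEAF-32, with 517 and 468 bp, and Ibf2, with 318 and 200 bp. All 4 WT libraries had peaks at these 3 genes as well. Under the alternatives the gains numbered 2 to 6 in each of these lists.

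Of 14 Integrator genes, IntS1 (421 and 618 bp at 2.5 to 3 h) and IntS4 (216 and 228 bp) gained a gene-end peak (14.3%, against 7.64% of all genes), and none lost it. With a gene-end window of 500 bp 1 gain was called. At both genes every WT library except replicate 1 of 1 to 1.5 h had a gene-end peak. The 3 kept genes were IntS2, IntS6 and IntS11, and 7 of 14 had no gene-end peak in any mutant library. Their median difference of 1279.5 bp is that of IntS2, with 1629 and 1378 bp at 2.5 to 3 h and 347 and 101 bp at 1 to 1.5 h. At IntS11 the summed length was 1643 and 1709 bp against 210 and 207 bp, and it took in the ATPsyngamma peak at 2.5 to 3 h only. Among elongation and pausing genes spt4 gained a peak (387 and 401 bp) among 10 (10%, against 7.64% of all genes), and none was lost. Every WT library except replicate 2 of 1 to 1.5 h had a gene-end peak at spt4. Among 16 cell cycle genes of the midblastula transition Cdk1 (427 and 257 bp) and the mitotic kinase gene aurA (361 and 337 bp) gained one (12.5%, against 7.64% of all genes), and neither gain was called with a gene-end window of 500 bp. Every WT library had a gene-end peak at aurA, and at Cdk1 only replicate 1 of WT at 2.5 to 3 h did. No cell cycle gene lost its gene-end peak, and 10 of 11 kept cell cycle genes were wider (90.9%, against 88.1% of all kept genes). Their median difference was 439.5 bp in the mutant and 131 bp in WT.

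Ribosomal protein genes gained gene-end peaks at 11 of 92 (12.0%, against 7.64% of all genes) and lost 1, RpS18 (1.09%, against 0.932%). The losses numbered 0 to 4 under the alternatives. RpS7 had the longest, with 1894 and 1962 bp at 2.5 to 3 h, followed by RpL31 (752 and 506 bp), RpS15 (875 and 338 bp), RpL26 (453 and 646 bp), RpL36A (540 and 492 bp) and RpS24 (537 and 489 bp). Of these 6, RpL31 had no peak in WT at 1 to 1.5 h, and the other 5 had one in all 4 WT libraries. The gains numbered 7 with a gene-end window of 500 bp and 25 with peaks of at least 200 bp. The 45 kept genes were wider by a median of 427 bp in the mutant, against 150 bp over the kept WT genes.

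Many small RNA genes have copies of nearly the same sequence, among which the authors' mapping could divide reads, and single members are therefore uncertain. Of 32 snRNA genes 4 were gained (12.5%, against 7.64% of all genes), or 2 with equal list lengths or a window of 500 bp, and none lost. Of the kept snRNA genes 14 of 15 were wider (93.3%, against 88.1% of all kept genes), with a median difference of 597.5 bp in the mutant and 184 bp in WT. The gains were at snRNA:U1:95Cc, with 2744 and 2795 bp, snRNA:U2:34ABb, with 1816 and 1798 bp, snRNA:U5:23D, with 238 and 186 bp, and snRNA:U5:38ABa, with 164 and 191 bp at 2.5 to 3 h. The U1 and U2 copies had peaks in all 4 WT libraries, and snRNA:U5:38ABa in none. Of 274 snoRNA and scaRNA genes 22 were gained (8.03%, near the 7.64% of all genes) and none lost, the longest at scaRNA:MeU1:95C-A24 with 2629 and 2554 bp. Neighbouring snoRNA genes share 1 peak in several of these cases, as within RpS7. No gained region covered more than 1543 bp in replicate 1 of 2.5 to 3 h or 1514 bp in replicate 2. The longer sums at the U1 and U2 copies, at RpS7 and at scaRNA:MeU1:95C-A24 are therefore not single gained regions.

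Of the tRNA genes 15 of 295 were gained (5.08%, against 7.64% of all genes) and 13 lost (4.41%, against 0.932%). The longest gains were at tRNA:Asp-GTC-1-8 and tRNA:Asp-GTC-1-9, which share peaks of 1033 and 344 bp at 2.5 to 3 h, and at the cluster of tRNA:Glu-CTC-3-1 and tRNA:Glu-CTC-3-2, with 791 and 506 bp. The longest loss was at tRNA:Cys-GCA-1-2, with 337 and 411 bp at 1 to 1.5 h, where all 4 WT libraries had a peak. In 9 of the 13 lost genes the peaks of 1 to 1.5 h were shorter than 148 bp, and with peaks of at least 200 bp 42 were gained and 1 lost. The direction turned with equal list lengths, with 14 gained and 20 lost, and without replicate 1 of 2.5 to 3 h there were 16 of each. Of 260 microRNA genes 12 were gained (4.62%, against 7.64% of all genes) and 2 lost (0.769%, against 0.932%).

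**Figure D4:**
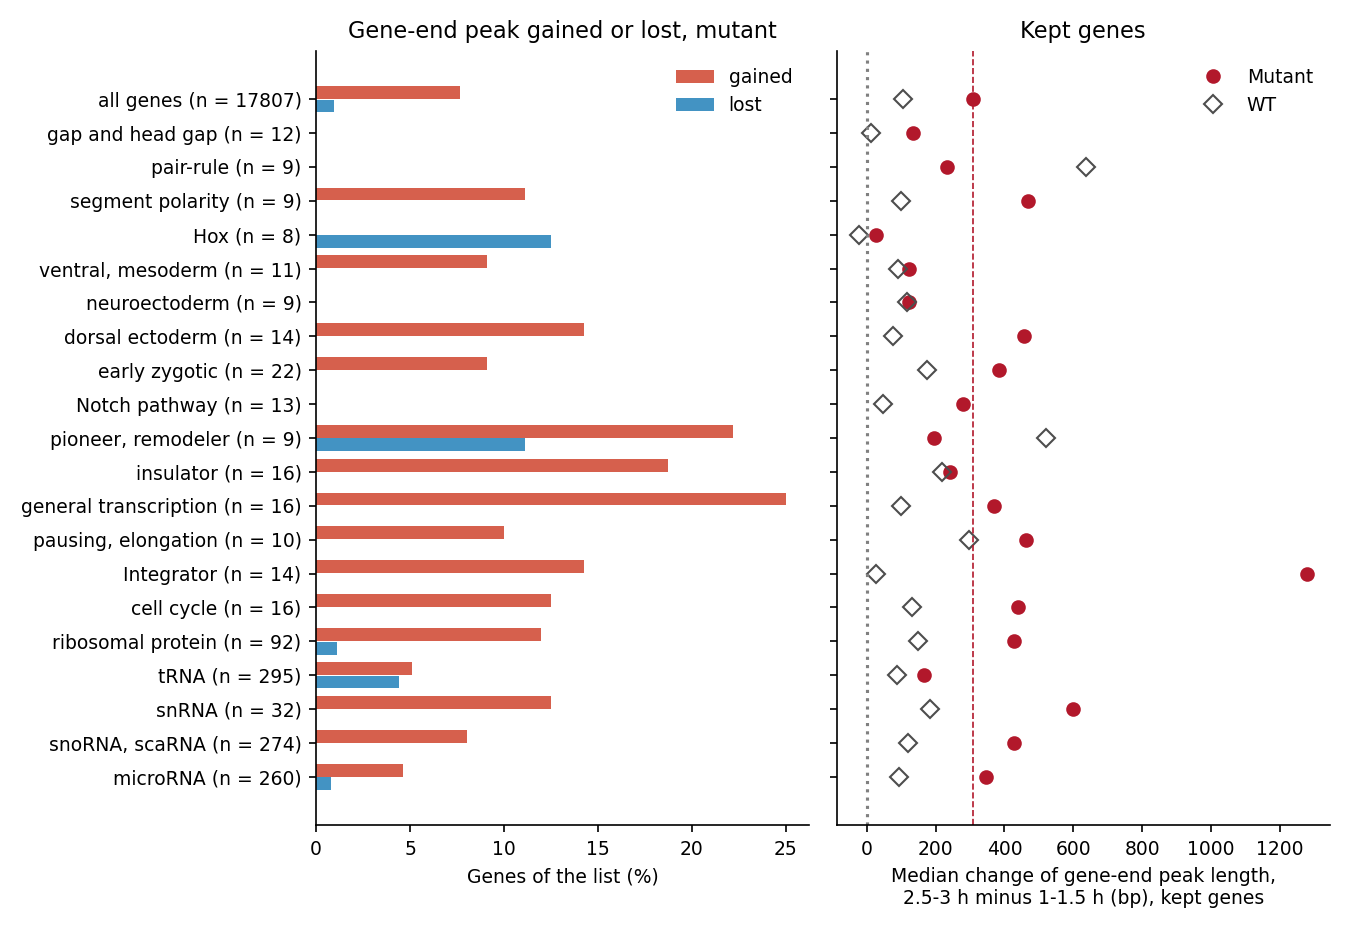
Left, share of each gene list (%) that gained or lost a gene-end peak in mutant embryos, with all genes at the top. Right, median difference of summed gene-end peak length at 2.5 to 3 h minus 1 to 1.5 h (bp) over kept genes, for mutant (filled circles) and WT (open diamonds), with a dashed line at the mutant median over all genes of 309 bp; the gap genes lie at 135 bp and the Hox genes at 27 bp.

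The longest gained regions were mostly regions that WT already called. Inside Dscam1, a neuronal cell-surface receptor gene (2R, 7365878 to 7367568), the mutant libraries of 2.5 to 3 h had 1351 and 1482 bp and those of 1 to 1.5 h none. The WT libraries had 1207 and 1132 bp there at 2.5 to 3 h and 171 and 159 bp at 1 to 1.5 h. The next were at the shared ends of Pis and Hap40 (X, 15703016 to 15704443, 1428 and 1151 bp), inside Upf1, the helicase of nonsense-mediated decay (X, 11901633 to 11903293, 828 and 1514 bp), and at the ends of CG12057, CG12056 and CG12106 (997 and 1331 bp), of Uba3 and CG16935 (1002 and 1290 bp), of mu2 and Cnb (1023 and 1203 bp) and of CG6230 (1543 and 660 bp). These 7 were called in every WT library.

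Other long gained regions were not. Inside Acer, a peptidase-like gene (2L, 8523587 to 8524636), the mutant had 1050 and 988 bp at 2.5 to 3 h, and no WT library had a peak. Inside out, which encodes a transporter needed for germ cell development (X, 19311357 to 19312424), it had 947 and 1068 bp, and 1 WT library, of 1 to 1.5 h, had a peak. Whether these stretches are exonic or intronic was not analysed here.

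The longest lost region lay inside tj, a transcription factor gene of the gonad (2L, 19464848 to 19466264), where the mutant libraries of 1 to 1.5 h had 1270 and 619 bp. WT had 223 bp in 1 library of 2.5 to 3 h and 1424 and 1112 bp at 1 to 1.5 h. Next came the end of the serine protease gene Jon44E (682 and 715 bp), Slob (708 and 435 bp), blo (617 and 463 bp), S, which encodes an EGF ligand trafficking factor (695 and 358 bp), Myo81F (532 and 517 bp) and the end of CG46460 within ImpL2 (460 and 484 bp). The last 3 were at gcm2, a regulator of glia and blood cells (322 and 570 bp, not called lost when joined peaks had to share 100 bp), CCT4, a chaperonin subunit gene (527 and 361 bp), and tey (446 and 435 bp). By its gene ends gcm2 was a kept gene, with 508 and 688 bp at 2.5 to 3 h and 278 and 754 bp at 1 to 1.5 h, so only the region was lost. Except at CCT4, no more than 1 WT library of 2.5 to 3 h called any of the 10, while at least 1 WT library of 1 to 1.5 h called each of them.

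Among kept regions the increase in length was greatest at eEF1alpha1, a translation elongation factor gene (2R, 11892008 to 11895043), with 3002 and 2882 bp at 2.5 to 3 h and 1185 and 783 bp at 1 to 1.5 h. A region between genes, 10402 bp from lncRNA:CR45177 (3L, 27102601 to 27105150), had 1913 and 2523 bp against 358 and 358 bp. The mir-309 cluster, whose microRNAs help clear maternal mRNA (2R, 19659174 to 19662225), had 3038 and 3037 bp against 1342 and 1611 bp. WT had 3159 and 3126 bp there at 2.5 to 3 h and 1386 and 1141 bp at 1 to 1.5 h, so the cluster was wider at the later window in both genotypes. The others were wech (2801 and 2990 bp against 1327 and 1239 bp), Toll-6 (2659 and 2300 bp against 1025 and 754 bp) and the end of the chromatin assembly factor gene Caf1-105 (2055 and 2143 bp against 806 and 397 bp).

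The decrease was greatest inside Sytbeta, a synaptotagmin gene (3L, 15018293 to 15019349), with 232 and 399 bp at 2.5 to 3 h and 829 and 733 bp at 1 to 1.5 h. It was followed by rau (690 and 336 bp against 1041 and 759 bp), the cuticle protein gene Ccp84Ac (163 and 151 bp against 519 and 490 bp), CAH7 (167 and 159 bp against 529 and 470 bp), a region between genes at 3R, 174433 to 175156 (206 and 343 bp against 495 and 724 bp), and Root with CG13607 (735 and 381 bp against 982 and 799 bp). At Sytbeta, Ccp84Ac and CAH7 both WT libraries of 1 to 1.5 h had peaks and neither of 2.5 to 3 h did.

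The X chromosome took a larger share of the mutant peaks at the later window. It held 16.9% and 16.7% of peaks at 2.5 to 3 h and 14.7% and 14.6% at 1 to 1.5 h, and the windows did not overlap (exact permutation p = 0.333, adjusted p = 0.333). In WT it held 16.4% and 16.3% at 2.5 to 3 h and 16.1% and 16.2% at 1 to 1.5 h. The change was 1.97 percentage points larger in the mutant than in WT. Exact permutation of genotypes within windows gave p = 0.0556 (adjusted p = 0.167). That is the smallest p it allows, so 0.05 could not be passed. On X 28.3% of the regions called in both mutant libraries of 2.5 to 3 h were gained, against 20.6% to 23.5% on the arms 2L, 2R, 3L, 3R and 4. In WT the share was 16.4% on X and 9.18% to 15.3% on those arms. Of the mutant regions called in both libraries of 1 to 1.5 h, 7.63% were lost on X and 4.17% to 10.97% on the others. The difference in the share of peaks on X lay between 2.03 and 2.81 percentage points under every alternative tried.

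**Figure D5:**
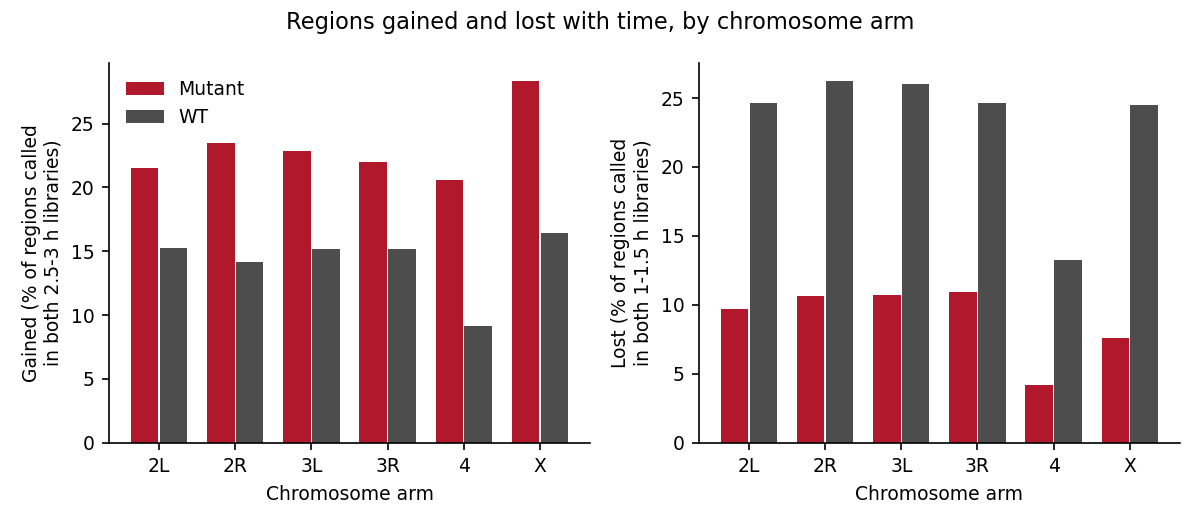
Left, gained regions as a share (%) of those called in both libraries of 2.5 to 3 h, and right, lost regions as a share (%) of those called in both libraries of 1 to 1.5 h, by chromosome arm for mutant and WT. The mutant bar on X stands at 28.3% gained, against 16.4% in WT.

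Genes linked to later or maternal tissues were counted as a check on what the collections held. The neural list does not mark differentiated neurons alone, since it holds genes of early neural development such as ac and l(1)sc. Every mutant and WT library had a gene-end peak at ac and l(1)sc, and none had one at nSyb or Syt1. Gene-end peaks were called at 8 and 8 of 11 neural genes at 2.5 to 3 h and at 8 and 7 at 1 to 1.5 h. Over all 17807 genes they were called at 7352 and 7264 against 5643 and 5032. Muscle genes numbered 4 and 5 of 9 against 3 and 1, and hemocyte, fat body and yolk genes 7 and 5 of 11 against 3 and 4. Follicle cell genes numbered 6 and 3 of 13 against 4 and 3, gut enzyme genes 4 and 1 of 8 against 4 and 2, and germline genes 2 and 4 of 8 against 3 and 3. Of these lists, gains were called at up (muscle, 223 and 245 bp), Lsp1gamma (fat body, 1873 and 385 bp) and Fcp3C (follicle cell, 888 and 1127 bp), and losses at vas (germline, 163 and 178 bp) and Vm34Ca (follicle cell, 242 and 242 bp). Each gain was 1 gene of its list, or 11.1%, 9.09% and 7.69%, against 7.64% of all genes. Every WT library had a gene-end peak at up and Fcp3C, and only those of 1 to 1.5 h did at Lsp1gamma. Each loss was also 1 gene, or 12.5% and 7.69%, against 0.932% of all genes. Among heat shock genes Hsp26 (668 and 507 bp) and Hsc70-3 (199 and 149 bp) gained a gene-end peak among 16 (12.5%, against 7.64% of all genes), 1 of them with equal list lengths or a window of 500 bp, and no WT library had one at either. Of 19 maternal axis genes gd gained one (299 and 494 bp, 5.26% of the list). Of 15 ecdysone response genes ImpE2 did (187 and 373 bp, 6.67%), against 7.64% of all genes. The remaining lists, Notch and JAK/STAT pathway and histone genes, had neither gain nor loss. The part of cell composition in the differences between windows was not tested.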

How the data were processed

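The deposited peak lists give chromosome, start and end in base pairs, with 3 columns per peak and no score, and each belongs to 1 library, so peaks were called per sample. Per the submitters' processing notes, MACS2 2.2.7.1, Bowtie2 2.2.5, deepTools 3.5.1, Trimmomatic 0.39 and SAMtools 1.18 were used with dm6. No source used here gives their settings, a Tn5 shift or the handling of duplicates. Groups were taken from the titles. Coordinates are dm6, 1-based.

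Regions, classes and covered lengths were computed in Python 3.11.15, and the code that joins peaks and assigns classes was checked on simulated lists with planted regions. Gene spans came from a RefSeq table of the Release 6 assembly (17807 genes), without strand, transcripts or exons. Of the hand-made lists, 5 symbols were not matched. Promoter motifs and sequences were not analysed here. Named were IntS11, the 10 longest gained and lost regions (1 gained region is not reported here), the 6 kept regions that widened or narrowed most, and list members gained or lost, up to 6 per list by length. Widths of the first 4 kept patterning genes per list were added. The members and lists were chosen with earlier results of these data known.

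Values per library were compared by exact permutation tests with Benjamini-Hochberg adjustment over 6 values. Alternatives were stricter or common peak limits, equal list lengths, other overlaps and windows, each library left out, and a replicate block.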

Additional observations from a re-analysis of the deposited data

Results flagged for a closer look

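The number of peaks moved in opposite directions with time in the 2 genotypes. Both mutant libraries of 2.5 to 3 h held more peaks than both of 1 to 1.5 h, and both WT libraries of 2.5 to 3 h held fewer than both of 1 to 1.5 h. The change in the mutant minus that in WT was 8164.5 peaks (exact permutation of genotypes within windows, p = 0.0556, the smallest p it allows, adjusted p = 0.167). With common limits of 160 bp it was 9699 peaks (exact permutation p = 0.111), of which 7906.5 was the change in the mutant. With only peaks of at least 200 bp it was 9156 peaks (exact permutation p = 0.222), of which 8129.5 was the change in the mutant. Most of the fall in WT as deposited thus lay in short peaks. Over all alternatives run the difference between genotypes lay between 6596 and 9733 peaks, with exact permutation p between 0.0556 and 0.222. The shortest peak differed by window in both genotypes. Mutant libraries had 148 and 149 bp at 2.5 to 3 h, against 100 and 101 bp at 1 to 1.5 h. WT libraries had 156 and 154 bp at 2.5 to 3 h, against 122 and 120 bp at 1 to 1.5 h. The part of the unknown depth was not tested.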

How the results depend on the processing

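With only peaks of at least 200 bp, 5240 regions were gained, 215 lost and 4558 kept, 3727 kept regions were wider at 2.5 to 3 h, and 2478 genes gained and 24 lost a gene-end peak. With common limits of 160 bp, 341 regions were lost, and 2197 genes gained and 37 lost a gene-end peak. Leaving out each mutant library in turn gave 4596 to 6943 gained regions, 1447 to 4649 lost regions, 1813 to 2181 gained genes and 234 to 575 lost genes, since 1 library then decides the call of its window. The lowest count of gained regions and the highest of lost regions and genes came without replicate 2 of 1 to 1.5 h. With equal list lengths, a shared length of at least 100 bp or a gene-end window of 500 bp, the totals of gained, lost and kept regions and of gained and lost genes that these settings touch stayed within 1.5 times of their values. Counts within gene lists moved further, in 10 of 32 with equal list lengths and in 12 of 32 with the window of 500 bp. The differences between windows in the 6 values per library kept their sign in every setting run, except that the number of peaks has no value with equal list lengths. The numbers of the replicates were the same in both windows, but the labels do not say that they mark a shared batch. The replicate block gave p = 0.5 by exact sign flips over 2 pairs, the smallest it allows, for the difference of 2377.5 peaks and for the other 5 values. Across the 8170 kept regions, the differences between replicates of the windows correlated with r = 0.019. The promoter windows listed as an alternative were not run. Depth, which the lists do not give, limits every statement on regions without a peak.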

Other observations

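The genes that held most gained regions were Myo81F and Pzl, both in the pericentromeric part of 3R, with 17 gained regions over 1966 kb and 12 over 709 kb. Both are long, and per length they held 0.865 and 1.69 per 100 kb. Ten-a on X, a cell-surface teneurin gene, held 9 over 292 kb (3.09 per 100 kb), and CG15465 and CG32816 on X and CG46467 on 3R held 8 each. At CG15465 none of its 13 regions was lost or kept. The genes with most lost regions were luna with 5, gpp, hth, mam and rn with 4 each, and CG33144 with 3. At rn, a transcription factor gene of limb development, 4 of 10 regions were lost and none was gained or kept, while hth, a homeobox cofactor gene of the Hox proteins, kept 16 of 41. Over all mutant regions 3.39% were lost, 11.6% gained and 27.1% kept. The genes were picked as the extremes of these same counts.

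Kept regions that were narrow at 1 to 1.5 h were wider by a larger ratio than those that were already wide. Among those with a mean length of up to 201 bp at 1 to 1.5 h, 88.2% of 2054 regions were wider at 2.5 to 3 h, with a median log2 ratio of 1.08. Among those above 418 bp it was 80.0% of 2040 regions and a median log2 ratio of 0.47. The median difference was 171 bp in the narrow regions and 229.5 bp in the wide ones. This split uses a value that also enters the ratio, so it is given as a description.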
